A study of Mus musculus with 8 samples.

Results

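The aquaporins are the membrane water channels of the cell, and 7 genes of the family were examined in mouse cochlea: Aqp1, Aqp3, Aqp4, Aqp6, Aqp7, Aqp9 and Aqp11. They were chosen by symbol from the 22180 genes that the platform annotation links to a feature of exactly 1 symbol, and all 7 were measured, each by 1 array feature. Expression was compared between 4 knockout animals, labelled as knockouts of miR-183 and miR-96, and 4 animals labelled control, which the series' design text calls wild type. All animals were at postnatal day 16, and each array holds the RNA of the whole encapsulated cochleae of 1 animal, so bone, marrow, vessels, nerve and adhering muscle are in the sample. Strain, sex and allele construction are not stated in the labels.

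Aquaporins let water cross a membrane along an osmotic gradient. The classical channels pass mainly water, the aquaglyceroporins also pass glycerol, and the unorthodox members sit largely on intracellular membranes. In the cochlea, potassium secretion by the stria vascularis sets the composition of endolymph. AQP4 lies in the membranes of supporting and sulcus cells beside the organ of Corti, AQP5 in outer sulcus cells, and AQP1 in fibrocytes of the spiral ligament and below the basilar membrane. Mice without AQP4 have impaired hearing. Several members are also blood proteins: AQP1 is abundant in red cell membranes, and AQP9 is found in leukocytes and in mouse red cells.

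The knockout removes 2 microRNAs, whose main (5p) mature sequences are shown with the seed, bases 2 to 8, in capitals, since the seed is the part that pairs with target transcripts. The sequences are RefSeq's, written 5′ to 3′, from the minus strand of build GRCm38.p6 at chr6:30169506-30169528 for miR-96-5p and chr6:30169711-30169732 for miR-183-5p.
mmu-miR-96-5p: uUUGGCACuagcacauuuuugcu
mmu-miR-183-5p: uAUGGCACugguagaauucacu
The seeds are not identical, so their sets of targets need not be the same. Target sites in aquaporin transcripts were not analysed here.

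The targeted gene was read first. The feature of Mir96 read 4.01, 4.26, 4.26 and 4.31 in knockout replicates 1 to 4 and 5.71, 5.26, 6.23 and 5.57 in control replicates 1 to 4 (log2 RMA values, the unit of all levels given). Every knockout array was below every control array, so no array went against its label, and the log2 value of Mir96 fell by 1.48 (SE 0.17; limma adjusted p = 0.00932). Mir183 differed by -0.33 (SE 0.18; limma adjusted p = 0.398), at a mean of 2.41 that lay at percentile 3.51 of tested features, too dim to check a label. Correlations between arrays ran from 0.947 to 0.976. Of the markers of the labelled tissue, Coch, the cochlin gene of spiral ligament fibrocytes, read 10.7 in control and 10.3 in knockout cochlea. Signal range, the SD of an array's log2 values, was 1.37 to 1.44 in the knockout and 1.41 to 1.56 in the control arrays. Its correlation is given below for Aqp1, Aqp3, Aqp7 and Aqp11.

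None of the 7 aquaporins passed the test between knockout and control cochlea. The limma adjusted p-values ran from 0.342 for Aqp7 to 0.971 for Aqp9, and 3 of 23521 features, 0.0128%, passed at 0.05. At an unadjusted p under 0.05 there was 1 member, Aqp7, which was higher in knockout, where 14.3% of all features passed and 7.04% were higher. In 0 members did the 4 knockout values lie clear of the 4 control values, against 5.96% of all features. The log2 differences, knockout minus control, lay between -0.25 for Aqp1 and 0.25 for Aqp7, with a median of 0.07 over the members and 0.01 over all tested features. That background depends on intensity. Among the 15251 features with a mean of at least 5 the median was -0.06. Of these, 738 were higher and 1590 lower at an unadjusted limma p under 0.05. In 5 members the difference was positive and in 2 negative, where 52.4% of all features were positive. As deposited, the 95% interval of each of the 7 differences, taken one at a time, excluded a 1.5-fold change in both directions. Smaller changes of the array signal lie within the intervals. The margin was narrow for Aqp1 (lower fold bound 0.678) and Aqp6 (upper fold bound 1.48). Alternative settings moved their differences as far as -0.34 (SE 0.17, muscle level as a covariate) and 0.31 (SE 0.18, without control replicate 1). With these SEs the 95% intervals reach past a 1.5-fold change, so the exclusion did not hold there. For the other settings it was not checked. Aqp3 and Aqp6 lay at percentiles 34.9 and 36.6 of tested features, and no detection call separates dim features from background.

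**Figure D1:**
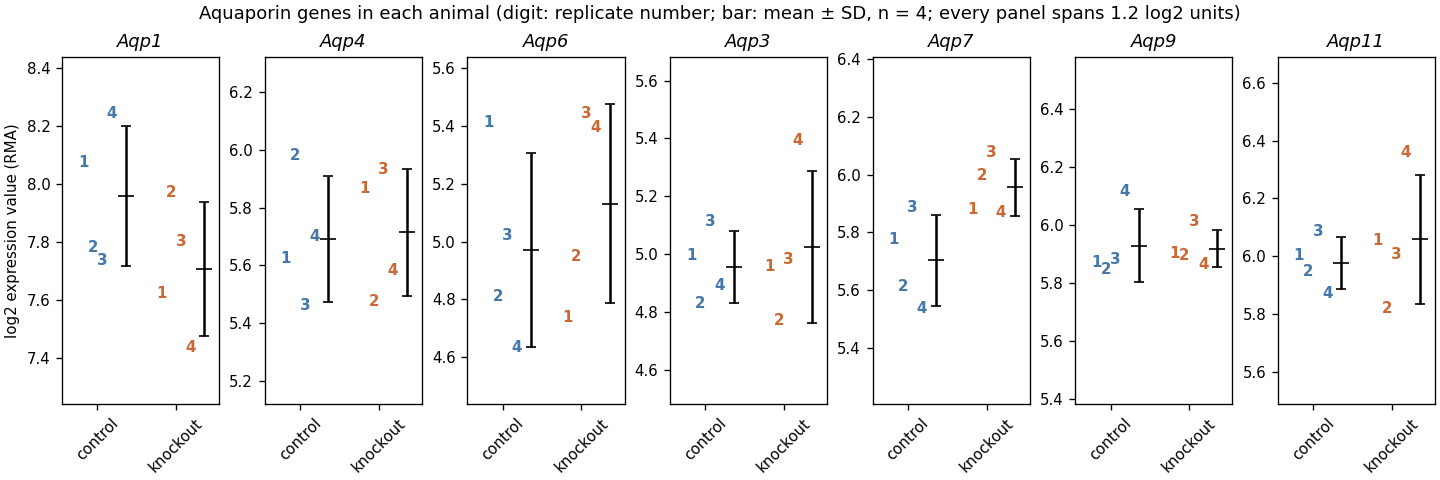
Log2 expression values (y axis, RMA) of the 7 aquaporin genes in 4 control and 4 knockout animals; each digit is 1 animal, by its replicate number, and bars are the mean ± SD (n = 4). Control and knockout values overlap in all 7 panels, and Aqp7 comes nearest to separation, with control replicate 3 at 5.88 beside knockout replicates 1 and 4.

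Among the classical channels, Aqp4, the channel of cochlear supporting cells and of glia, read 5.87, 5.47, 5.93 and 5.58 in knockout replicates 1 to 4 and 5.63, 5.98, 5.46 and 5.70 in control replicates 1 to 4. Each group held both high and low animals, and the lowest and the highest value of the 8 were both controls. The means were 5.71 ± 0.22 in knockout and 5.69 ± 0.22 in control cochlea (SD, n = 4), a difference of 0.02 (SE 0.14; limma adjusted p = 0.949). The 95% interval on the fold scale ran from 0.823 to 1.25. The difference was below 0 after cyclic loess (-0.0071) and after median-centring (-0.06), so it has no settled sign.

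Aqp1 read 7.62, 7.97, 7.80 and 7.43 in knockout replicates 1 to 4 and 8.07, 7.78, 7.73 and 8.25 in control replicates 1 to 4. Knockout replicates 1 and 4 were below all controls and control replicates 1 and 4 above all knockouts, while the other 4 animals were interleaved. The means were 7.71 ± 0.23 in knockout and 7.96 ± 0.24 in control cochlea (SD, n = 4), a difference of -0.25 (SE 0.14; limma adjusted p = 0.421), with a fold of 0.840 (95% interval 0.678 to 1.04). The difference stayed negative when the arrays were rescaled, at -0.33 by median-centring, -0.11 by quantile normalization and -0.09 by cyclic loess. Of the 20 alternative settings 19 kept its sign and 1, signal range as a covariate, turned it, to 0.08. The most negative value was -0.34. In 3 of these settings the unadjusted limma p was under 0.05, and the adjusted p was never under 0.20. Without control replicate 4 it was -0.16 (adjusted p = 0.763), and without knockout replicate 4 also -0.16 (adjusted p = 0.713).

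Aqp6 encodes a channel of intracellular vesicles that also conducts anions. It read 4.74, 4.95, 5.44 and 5.39 in knockout replicates 1 to 4 and 5.41, 4.81, 5.02 and 4.63 in control replicates 1 to 4. Animals of both genotypes lay at the top and at the bottom of this range, and the SD within groups was the largest of the 7 members, 0.34, where the median over all features was 0.19. The means were 5.13 ± 0.34 in knockout and 4.97 ± 0.34 in control cochlea (SD, n = 4), a difference of 0.16 (SE 0.19; limma adjusted p = 0.688). With signal range as a covariate the difference was -0.17. It was 0.05 without control replicate 4, 0.06 without knockout replicate 3, 0.07 without knockout replicate 4, 0.31 without control replicate 1 and 0.29 without knockout replicate 1.

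Among the aquaglyceroporins, Aqp7, the glycerol channel of fat cells and of muscle capillaries, came nearest to passing. It read 5.88, 5.997, 6.08 and 5.87 in knockout replicates 1 to 4 and 5.78, 5.61, 5.88 and 5.54 in control replicates 1 to 4. Every knockout animal was above the control mean, and control replicate 3 alone reached into the knockout range. The means were 5.96 ± 0.10 in knockout and 5.70 ± 0.16 in control cochlea (SD, n = 4), a difference of 0.25 (SE 0.11; limma adjusted p = 0.342), with a fold of 1.19 (95% interval 1.005 to 1.41). The difference stayed above 0 in all 20 alternative settings, from 0.09 with signal range as a covariate to 0.31 without control replicate 3, and its adjusted p was never under 0.149.

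Aqp3, a water and glycerol channel of epithelia, read 4.96, 4.77, 4.98 and 5.39 in knockout replicates 1 to 4 and 4.996, 4.83, 5.11 and 4.89 in control replicates 1 to 4. Both the highest and the lowest animal were knockouts, replicates 4 and 2. The means were 5.03 ± 0.26 in knockout and 4.96 ± 0.12 in control cochlea (SD, n = 4), a difference of 0.07 (SE 0.14; limma adjusted p = 0.828). It was -0.04 after cyclic loess and -0.05 without knockout replicate 4. Aqp9, a glycerol and urea channel of liver and leukocytes, had the narrowest spread of the members. It read 5.90, 5.89, 6.01 and 5.87 in knockout replicates 1 to 4 and 5.87, 5.85, 5.88 and 6.12 in control replicates 1 to 4. Control replicate 4 was the highest, followed by knockout replicate 3, and the other animals lay close together. The means were 5.92 ± 0.06 in knockout and 5.93 ± 0.13 in control cochlea (SD, n = 4), a difference of -0.01 (SE 0.11; limma adjusted p = 0.971; 95% fold interval 0.847 to 1.17). Without control replicate 4 it was 0.05.

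Aqp11, an unorthodox member of the endoplasmic reticulum, read 6.05, 5.82, 6.01 and 6.36 in knockout replicates 1 to 4 and 6.003, 5.95, 6.09 and 5.87 in control replicates 1 to 4. Knockout replicate 4 was the highest and knockout replicate 2 the lowest of the 8, the same animals as for Aqp3. The means were 6.06 ± 0.22 in knockout and 5.98 ± 0.09 in control cochlea (SD, n = 4), a difference of 0.08 (SE 0.12; limma adjusted p = 0.758). It was -0.02 without knockout replicate 4 and -0.15 with signal range as a covariate. Aqp11 had an r of -0.66 with signal range (exact permutation p = 0.0678, adjusted 0.136). By rank its rho was -0.76 (exact permutation p = 0.0368, adjusted 0.122). For Aqp3 the r with signal range was -0.60 (exact permutation p = 0.111, adjusted 0.177).

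**Figure D2:**
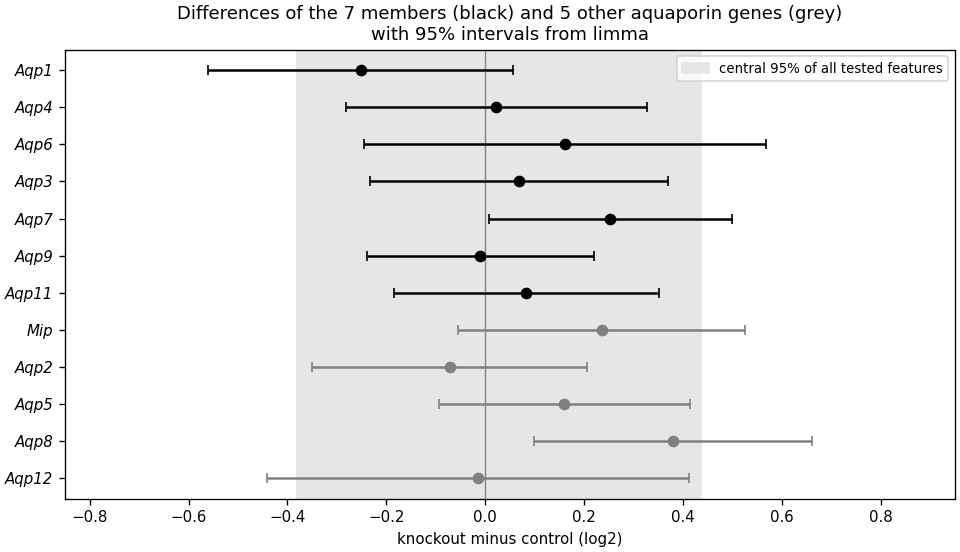
Knockout minus control log2 differences (x axis) with 95% intervals from limma for the 7 aquaporins (black) and the 5 other genes of the family (grey); the grey band holds the central 95% of all tested features, from -0.38 to 0.44. All 12 points lie inside the band, and only the intervals of Aqp7 and Aqp8 lie clear of 0.

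The 5 other genes of the family did not pass either. Aqp8, a channel of gut and liver epithelia, read 4.76, 4.64, 4.82 and 4.53 in knockout replicates 1 to 4 and 4.35, 4.02, 4.48 and 4.38 in control replicates 1 to 4. Every knockout animal was above every control, and the difference was 0.38 (SE 0.13; limma adjusted p = 0.301). Its mean of 4.50 lay at percentile 23.1 of tested features, and without a detection call it could not be told from background. Aqp8 too had an unadjusted p under 0.05. Groups lay apart with the knockout higher at 3.3% of all features. Aqp5, the apical channel of outer sulcus cells, differed by 0.16 (SE 0.12; limma adjusted p = 0.518). Mip, the lens channel of fibre cells, differed by 0.24 (adjusted p = 0.425), Aqp2, the vasopressin-regulated channel of the kidney, by -0.07 (adjusted p = 0.802) and Aqp12, a pancreatic member, by -0.02 (adjusted p = 0.974).

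Some of these genes are neighbours in the genome. In the RefSeq gene table, Aqp7 and Aqp3 are adjacent on chromosome 4, and Aqp6 is adjacent to Aqp5 on chromosome 15. Aqp7 was lowest in control replicate 4 and highest in knockout replicate 3, while its neighbour Aqp3 was lowest in knockout replicate 2 and highest in knockout replicate 4. Aqp6 and Aqp5 were both lowest in control replicate 4 and both highest in knockout replicate 3. Aqp7, on another chromosome, had the same extremes, so they are not particular to these neighbours. Aqp2 was highest in control replicate 4 (5.81) and lowest in knockout replicate 2 (5.34). The share of all genes with such extremes was not counted. Aqp1 shares chromosome 6 with the targeted microRNA cluster, and 239 protein-coding genes are listed between them. Its own neighbours Mindy4 and Ghrhr differed by 0.05 and 0.06 (limma adjusted p = 0.861 and 0.847).

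Aqp1 varied between animals together with the mean level of red cell lineage genes. Single genes of that list had a Pearson's r with Aqp1 between -0.09 and 0.97. It was positive for 10 of the 11 measured, where 46% of all genes had a positive r. The erythroid list had 14 genes, of which 11 were measured, all 11 with a negative difference (-0.45 for Rhag to -0.009 for Gata1) and 0 past the adjusted threshold. Of all features 52.4% were positive, and those with a mean of at least 5 had a median difference of -0.06. The mean level of the erythroid list was 7.02, 7.49, 7.34 and 7.01 in knockout replicates 1 to 4 and 7.43, 7.36, 7.07 and 7.86 in control replicates 1 to 4. The animal with the most erythroid signal, control replicate 4, had the highest Aqp1, and the animal with the least, knockout replicate 4, the lowest. Over the 8 animals Pearson's r was 0.93 (exact permutation p = 0.00119, 0.0107 after Benjamini-Hochberg adjustment over 9 pairs of a member and a marker list) and Spearman's rho 0.95 (exact permutation p = 0.00114, adjusted 0.0103). The lists and tests were chosen with earlier results of these data known, which the adjustment does not cover. Without control replicate 4 and knockout replicate 4, the 2 animals farthest from the median erythroid level, r was 0.85, and after subtracting each genotype's mean it was 0.92. Of 22169 genes outside the list, 0.487% followed the erythroid level as closely as Aqp1 or more so. With the erythroid level as a covariate the Aqp1 difference between genotypes was -0.09 (limma adjusted p = 0.834).

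Single erythroid genes show the range between animals. Slc4a1, the red cell anion exchanger band 3, read 8.49, 9.03, 9.03 and 8.34 in knockout replicates 1 to 4 and 9.20, 8.91, 8.88 and 9.54 in control replicates 1 to 4, a difference of -0.41 (limma adjusted p = 0.335). Rhag, a red cell ammonium channel, differed by -0.45 (adjusted p = 0.351). The overall signal of the arrays moved with both measures: signal range had an r of 0.80 with Aqp1 (exact permutation p = 0.0173, adjusted 0.0462 over 8 relations) and of 0.82 with the erythroid level (exact permutation p = 0.0117, adjusted 0.0462). By rank neither passed after adjustment, with a rho of 0.74 for Aqp1 (exact permutation p = 0.0458, adjusted 0.122) and of 0.83 for the erythroid level (exact permutation p = 0.0154, adjusted 0.122). Without control replicates 2 and 4 the r was 0.91 for Aqp1 and 0.72 for the erythroid level. After cyclic loess, which rescales the arrays along intensity, r between Aqp1 and the erythroid level was 0.84 (exact permutation p = 0.0137, adjusted 0.124), so the relation then missed the adjusted threshold. The part of signal range in it was not tested further. In whole tissue, fewer cells of a type and less RNA per cell cannot be told apart.

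**Figure D3:**
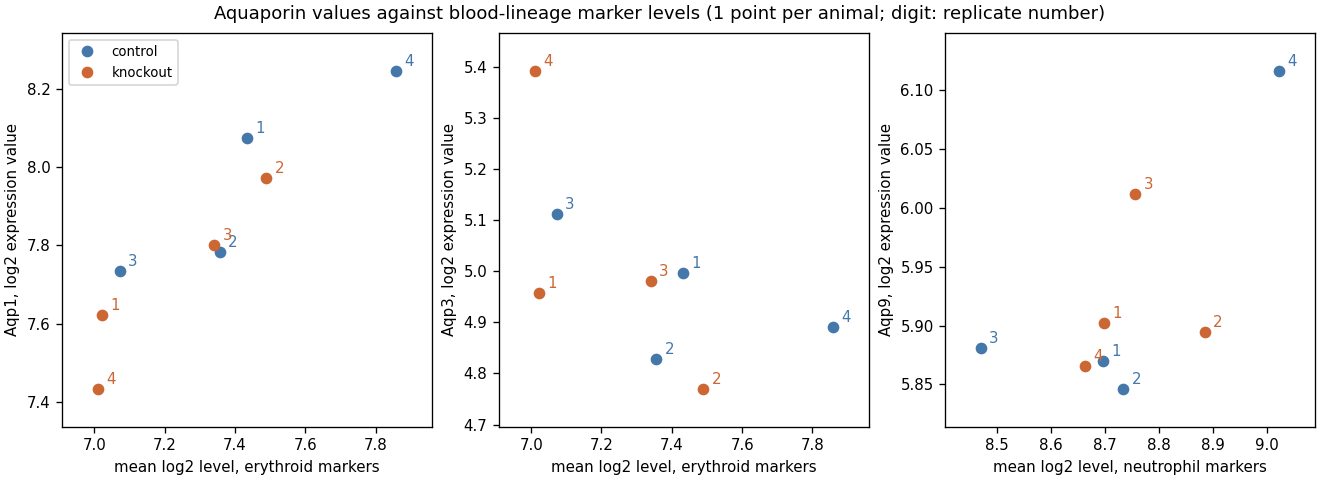
Log2 values of Aqp1, Aqp3 and Aqp9 (y axes) against the mean log2 level of erythroid or neutrophil markers (x axes) in 4 control and 4 knockout animals; each point is 1 animal with its replicate number. Aqp1 follows the erythroid level in both genotypes (r = 0.93), Aqp3 runs the other way without passing the test, and control replicate 4 is highest for Aqp9 and for both marker lists.

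The proximal promoters of Aqp1 and Aqp3 are shown because these members had opposite signs of r with the erythroid level (r = -0.62 for Aqp3, exact permutation p = 0.105, adjusted 0.236). Each runs from 250 bases before to 50 bases after the start in RefSeq's GRCm38.p6, at chr6:55336049-55336348 on the plus strand for Aqp1 and chr4:41098134-41098433 on the minus strand for Aqp3. Capitals mark CACCC on either strand, the core bound by the red cell factor KLF1.
Aqp1: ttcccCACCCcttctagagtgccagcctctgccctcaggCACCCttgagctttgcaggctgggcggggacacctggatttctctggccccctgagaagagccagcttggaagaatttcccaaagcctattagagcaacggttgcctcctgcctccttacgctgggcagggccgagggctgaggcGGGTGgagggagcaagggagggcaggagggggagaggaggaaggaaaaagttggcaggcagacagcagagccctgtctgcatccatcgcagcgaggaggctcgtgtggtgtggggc
Aqp3: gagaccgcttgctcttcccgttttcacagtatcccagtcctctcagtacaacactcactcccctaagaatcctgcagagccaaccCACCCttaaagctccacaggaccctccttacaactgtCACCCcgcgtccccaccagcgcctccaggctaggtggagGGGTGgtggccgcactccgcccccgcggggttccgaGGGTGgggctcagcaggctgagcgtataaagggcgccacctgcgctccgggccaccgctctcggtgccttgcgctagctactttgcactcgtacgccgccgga
The Aqp1 window holds 3 matches and the Aqp3 window 4. Of all 32851 promoter windows of that length 57.5% hold at least 1 match and 9.35% at least 3. AGATAA, a form of the GATA site, has 0 matches on either strand in both windows and is found in 11.2% of all. These letters describe the windows and say nothing of binding in cochlea.

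For Aqp4, Aqp7 and Aqp9, marker lists of cells known to hold them were set beside them. Aqp6 and Aqp11 had no such list, and Aqp9 was not set beside the erythroid list. Aqp9 and the neutrophil list, 13 of 13 measured, had an r of 0.68 (exact permutation p = 0.0773, adjusted 0.232), and 0.22 without control replicates 3 and 4. The neutrophil level was 8.66 to 8.88 in knockout and 8.47 to 9.02 in control animals. Control replicate 4, which stood apart for Aqp9, had both the highest neutrophil and the highest erythroid level. The neutrophil granule genes S100a9 and S100a8 were at 0.35 and 0.27 (limma adjusted p = 0.301 and 0.365). The list had no common direction, with 7 positive and 6 negative differences and a median of 0.05. Prtn3 was at -0.39 and Elane at -0.27 (limma adjusted p = 0.407 and 0.421). Aqp7 and the endothelial list, 11 of 11 measured, ran in opposite directions, with an r of -0.85 (exact permutation p = 0.00903, adjusted 0.0406) but a rho of -0.71 (adjusted 0.249). Without knockout replicate 3 and control replicate 2 that r was -0.69, after cyclic loess -0.72 (adjusted 0.183), and Aqp7 had an r of -0.84 with signal range (exact permutation p = 0.00848, adjusted 0.0462; rho -0.67, exact permutation p = 0.0831, adjusted 0.166), which went to -0.40 without control replicates 2 and 4 and so rests on those arrays. In the endothelial list Erg, a vessel transcription factor gene, was at -0.31 and Egfl7 at 0.16 (limma adjusted p = 0.332 and 0.503). Aqp7 and the adipocyte list, 8 of 9 measured, had an r of 0.53 (exact permutation p = 0.180, adjusted 0.325). The adipocyte level was 5.75 to 5.93 in knockout and 5.65 to 5.79 in control animals, and Plin1, which coats fat droplets, differed by 0.20 and Cidec, of fat droplet fusion, by 0.23 (limma adjusted p = 0.437 and 0.493). Cidec was dim, with means of 4.65 in control and 4.88 in knockout cochlea. The list median was 0.12, with 6 positive and 2 negative differences, where 52.4% of all features were positive. The negative genes were Fabp4 at -0.10 and Plin4 at -0.11.

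Aqp4 passed the test with neither list set beside it. Its r was 0.08 with the supporting cell list (exact permutation p = 0.839, adjusted 0.839) and 0.16 with the skeletal muscle list (exact permutation p = 0.754, adjusted 0.839). Without knockout replicate 1 and control replicate 2 the muscle value was -0.90, so it rests on single arrays. The supporting cell level was 5.86 to 6.17 in knockout and 6.04 to 6.29 in control animals, with 0 of 12 measured genes past the adjusted threshold and 4 lower at an unadjusted p under 0.05, where 7.25% of all features were lower. Fbxo2, a ubiquitin ligase subunit gene of supporting cells, was at -0.42 and Slc1a3, a glutamate transporter gene, at -0.29 (limma adjusted p = 0.301 and 0.305). The muscle level ran from 5.63 to 6.70 in knockout and from 6.52 to 8.48 in control animals, with a median difference of -0.72 over 15 genes and of -0.28 without control replicate 2. None of the 15 passed after adjustment, and Myh4, a fast myosin gene, was at -1.67 and Actn3, a fast-fibre actinin gene, at -0.90 (limma adjusted p = 0.305 and 0.301).

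Among genes that act with the aquaporins, none of those measured in 4 lists passed after adjustment. In tissues with AQP4, the dystrophin-associated complex holds the channel in place. Of 14 measured genes of that list 0 passed after adjustment and 2 were lower at an unadjusted p under 0.05, where 7.25% of all features were. These were Sgcb, encoding beta-sarcoglycan, at -0.46 (limma adjusted p = 0.301), and Utrn, encoding utrophin, at -0.32 (adjusted p = 0.305). The list median was -0.10, and 13 of the 14 differences were negative, where 52.4% of all features were positive. Features with a mean of at least 5 had a median of -0.06. The list median was -0.06 without control replicate 2, -0.15 without control replicate 3 and -0.07 without knockout replicate 3. Sgcb read 5.81, 5.85, 5.73 and 5.64 in knockout replicates 1 to 4 and 6.04, 6.59, 5.96 and 6.27 in control replicates 1 to 4. All knockout animals were below all controls, as at 2.65% of all features, and the highest animal was control replicate 2, which also had the highest muscle level.

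Of 17 measured genes of endolymph ion transport, which the water flow follows, 0 passed after adjustment, while 5 were lower and 1 higher at an unadjusted p under 0.05, where 7.25% of all features were lower and 7.04% higher. The median was -0.10, and -0.06 without knockout replicate 3 or after cyclic loess and -0.07 without control replicate 3. Atp1b1, a sodium pump subunit, was at -0.38 (limma adjusted p = 0.291) and Slc4a11, a transporter of spiral ligament fibrocytes, at -0.57 (adjusted p = 0.301). In the list of osmotic and vasopressin response, 0 of 16 measured genes passed and 3 were lower at the unadjusted threshold, where 7.25% of all features were, with a median of -0.09 (-0.06 without control replicate 1 or after cyclic loess). Stk39, a kinase that regulates chloride cotransporters in cell volume control, was at -0.48 and Slc6a6, the taurine transporter, at -0.36 (limma adjusted p = 0.301 for both). In the glycerol handling list, 0 of 12 measured genes passed and 0 had an unadjusted p under 0.05, with a median of -0.14 (-0.09 without knockout replicate 4). Lpl, the lipoprotein lipase gene, was at -0.30 and Gpat4, of triglyceride synthesis, at -0.26 (limma adjusted p = 0.351 and 0.357). These 4 medians were below that of the aquaporins as deposited, and the difference between lists was not tested. The median of all features with a mean of at least 5 was itself -0.06, with 1590 lower and 738 higher at the unadjusted threshold.

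Among the remaining cell type lists, the fibrocyte median was -0.24 over 11 genes with 0 past the adjusted threshold. It was -0.14 without control replicate 2, -0.15 without knockout replicate 3 and -0.12 after cyclic loess, and Coch was at -0.35 (limma adjusted p = 0.305). Aqp1 had an r of 0.27 with that list (exact permutation p = 0.513, adjusted 0.660) and of 0.47 with the endothelial list (exact permutation p = 0.241, adjusted 0.361). In the hair cell list 1 of 13 genes passed: Calb2, the calretinin gene, fell by 1.60 (SE 0.14; limma adjusted p = 0.000752), and the median was -0.03. Myo6, an unconventional myosin gene, was at -0.53 (adjusted p = 0.301). In the glia and myelin list, 0 of 10 measured genes passed, and Mal and Mag, both myelin protein genes, were at -0.57 and -0.35 (limma adjusted p = 0.291 and 0.364).

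The members had no common course over the 8 animals. Aqp3 and Aqp11 were most alike, with a Pearson's r of 0.96, and Aqp1 and Aqp11 least, with -0.81. These 21 pairs share arrays and their scaling, and the values are a description. Among all genes, the 1 most like Aqp1 over the 8 arrays was Tmem14c, a mitochondrial membrane gene of haem synthesis (r = 0.98), followed by AU020206 and Poldip3 (each 0.98). The genes most like Aqp3 were Agtr2, Ubxn11 and A830005F24Rik (0.97 each), and A830005F24Rik was also the closest to Aqp11, followed by Rsph6a and ND6 (0.98 each). Lamb3, a laminin chain gene, was closest to Aqp7, before Olfr8 and Dnmt3aos (0.97 to 0.98). Entpd5 was closest to Aqp9 (0.96), before Npl (0.94) and Ulk1 (0.93), and Zfp862-ps to Aqp4 (0.96), before Ctrc and Zswim2 (each 0.95). For Aqp6 they were 4930593C16Rik and Tctn3 (each 0.97) and Ddi1 (0.96). With 22180 genes and 8 arrays, the closest gene had an r above 0.95 for each of the 7 members.

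**Figure D4:**
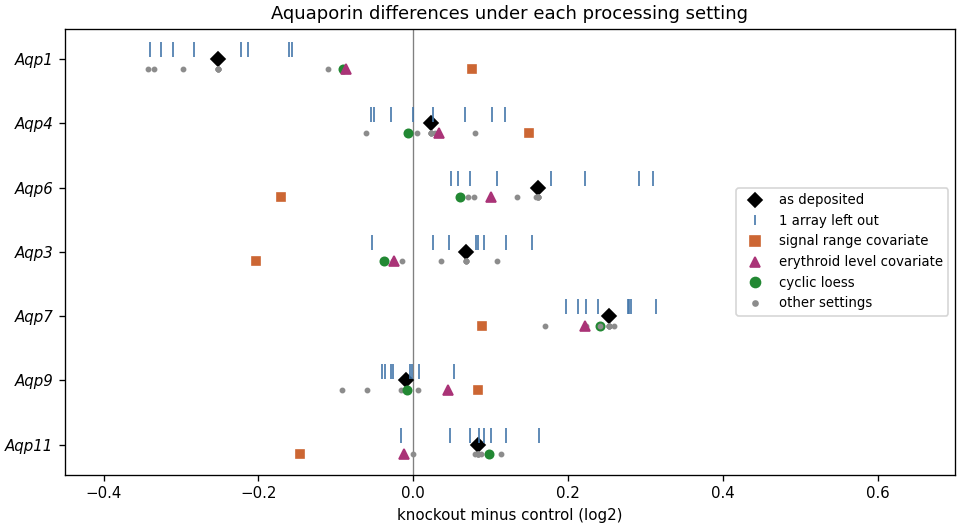
Knockout minus control log2 differences (x axis) of the 7 aquaporins under the deposited values (diamonds), each array left out in turn (ticks), signal range or erythroid level as a covariate (squares, triangles), cyclic loess (circles) and the other settings (dots). Aqp7 stays right of 0 throughout, Aqp1 and Aqp6 cross 0 with signal range as a covariate, and Aqp3, Aqp4, Aqp9 and Aqp11 lie on both sides of 0.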

How the data were processed

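RNA of 8 animals was measured on Affymetrix Mouse Gene 2.0 ST arrays, 4 per genotype. The deposited log2 values come from RMA, run by the authors in Affymetrix Expression Console at gene level, per the labels' descriptions. For the software version, the array build and the arrays that RMA took together, nothing is stated. With no detection call, dim features could not be told from background. Precision is limited by the number of arrays.

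Of 41345 features, 23521 were linked to exactly 1 symbol and tested. A gene with several features was read from its brightest by mean. Genotypes were compared in limma 3.58.1 under R 4.3.3 (lmFit, eBayes with intensity trend), with Benjamini-Hochberg adjustment over all tested features and a threshold of 0.05, after a test on simulated data. Differences are knockout minus control. Correlations over animals were tested two-sided by exact permutation, in families of 9 and 8.

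The members, the 14 gene lists beside them, the tests and the alternatives were chosen with earlier results of these data known. Named were all members, the 2 genes of each list with the smallest p, list genes past the threshold and the 3 genes most alike to each member. Other list genes, Aqp1's neighbours and the 2 promoters were picked after their values were seen, as was the correlation with signal range and cyclic loess for correlations. Protein features were planned and were not analysed here. Sequences and gene order come from RefSeq (GRCm38.p6).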

Additional observations from a re-analysis of the deposited data

Results flagged for a closer look

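Of 56 groups of 4 values examined, 2 held an animal far from the rest by Dixon's criterion, and chance marks about 1 group in 20. Aqp9 in control replicate 4 was at 6.116, with a gap to the next control that was 0.873 of the group's range. The mean level of the osmotic and vasopressin response list in control replicate 3 was 6.098, below the other controls, with a gap of 0.906 of the range.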

How the results depend on the processing

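Over 139 recomputed member differences, 118 kept their sign and 21 turned it, and 0 passed the adjusted threshold. The count of members past it was 0 in every setting run. Signs turned for Aqp3 after median-centring (-0.014), quantile normalization (-0.026), cyclic loess (-0.037) and with a covariate for signal range (-0.20) or erythroid level (-0.025). They turned for Aqp4 after median-centring (-0.060) and cyclic loess (-0.0071), for Aqp9 with array weights (0.0064), signal range (0.083) or erythroid level (0.044), for Aqp11 with signal range (-0.15) or erythroid level (-0.011), and with signal range for Aqp1 (0.076) and Aqp6 (-0.17). Leaving out 1 array gave -0.054 to 0.15 for Aqp3, -0.055 to 0.12 for Aqp4, -0.041 to 0.053 for Aqp9 and -0.016 to 0.16 for Aqp11. Members at an unadjusted p under 0.05 numbered 1 as deposited, 2 with array weights, 0 after median-centring or quantile normalization and 0 with each covariate, and 0 to 2 when 1 array was left out. Features past the adjusted threshold numbered 3 as deposited, 8 with array weights, 1 over the whole table and 1 with signal range, and 1 (without control replicate 1) to 21 (without control replicate 3) when 1 array was left out. At the unadjusted threshold there were 3361 features as deposited, 5253 over the whole table, which tests more features, 1400 with signal range, 1988 with erythroid and 1721 with muscle level, and 1902 (without control replicate 4) to 5501 (without control replicate 3) when 1 array was left out; the count was 2023 without control replicate 2 and 2116 without knockout replicate 4. The split of those calls was 1655 higher and 1706 lower as deposited, 832 and 2681 after median-centring, which moved the median of all features to -0.07. After cyclic loess the correlation of Aqp1 turned negative with the endothelial (-0.17) and the fibrocyte list (-0.34). The cause of these changes was not tested. Replicate numbers did not pair the animals: correlations of same-numbered deviations were 0.06, 0.21, 0.21 and -0.29, and knockout 3 alone among the knockouts was closest to its own number. With the replicate block 3 features passed and Aqp7 had an adjusted p of 0.309. Each member has 1 feature, so no other feature could be tried, and Aqp3 gave no value with features of a mean of at least 5.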
